A study of Homo sapiens with 12 samples.

Results

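The lysosome and autophagy genes described here are 40 genes taken by their symbols from both deposited tables: a transcription factor, autophagy receptors, autophagosome genes, lysosomal hydrolases and membrane proteins, and subunits of the proton pump. All 40 were listed in both tables, among 13583 genes in the overexpression table and 13554 in the knockdown table. The libraries came from SW480, an established human colon cancer line, in 4 stably transfected groups of 3 libraries each. OE cells overexpressed GPD1L, an enzyme related to glycerol-3-phosphate dehydrogenase, and Vector cells were their control; shGPD1L cells carried a hairpin that lowers GPD1L, and shNC cells were theirs. The sources used here do not say whether a line was 1 clone or a pool, how many hairpin sequences were used, or whether the libraries of a group are separate cultures. The p-values therefore rest on a spread between libraries that may be only technical.

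Autophagy encloses cell contents in a double membrane, the autophagosome, and delivers them to the lysosome. Small ubiquitin-like proteins of the ATG8 family are coupled to the growing membrane, where receptors such as SQSTM1 (p62) bind them and the cargo together. Lysosomes hold acid hydrolases, a proton pump (V-ATPase) acidifies them, and the transcription factor TFEB binds a motif, the CLEAR element, in the promoters of many lysosomal genes.

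Levels are FPKM, fragments scaled to transcript length and to the mapped fragments of the library, and so can be set beside each other between genes of a table. GPD1L itself was at 22.3, 22.8 and 22.1 FPKM in OE libraries, against 10.7, 10.2 and 11.1 FPKM in Vector libraries. It was at 1.55, 1.26 and 2.23 FPKM in shGPD1L libraries, against 8.68, 8.01 and 9.10 FPKM in shNC libraries, so the targeted gene moved in the direction of the labels in both. On the first principal component of the knockdown table, replicate 3 of shGPD1L stood at 29.1 and the other 5 libraries between −12.12 and 0.32. The calls of the knockdown are therefore also given without it. Colon epithelium markers summed to at least 3110 FPKM in every library, none of the 4 endothelial markers was listed, and the fibroblast markers summed to at most 2.31 FPKM. Of the 6 leukocyte markers only CD14 and CD68, itself a lysosomal membrane protein, were listed, with sums of 18.4 to 19.5 FPKM in OE, 17.3 to 19.7 FPKM in Vector, 20.001 to 28.7 FPKM in shGPD1L and 27.8 to 31.98 FPKM in shNC libraries, and CD14 was called lower in OE cells (−0.64). Of the 3 neuron markers only TUBB3 was listed, at 90.7 to 96.5 FPKM in OE libraries, against 52.7 to 61.1 FPKM in Vector libraries (called higher, 0.69), and at 107 to 128 FPKM in shGPD1L libraries, against 111 to 124 FPKM in shNC libraries. In OE cells 5 of the 7 tested epithelium markers were called lower and 2 higher, and their sum was 3335 to 3419 FPKM, against 3110 to 3209 FPKM in Vector cells. In shGPD1L cells the sum was 3340 to 3754 FPKM, against 4160 to 4466 FPKM in shNC cells. The part of these shifts in the results was not tested, and in bulk libraries a change in the share of cells and one in RNA per cell cannot be told apart.

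Most of the 40 genes were well expressed. The median of the 40 was 33.0 FPKM in OE, 34.0 FPKM in Vector, 29.4 FPKM in shGPD1L and 30.9 FPKM in shNC cells. SQSTM1 and PSAP, the precursor of the saposins that help break down sphingolipids, were the 2 highest in each group, followed by CTSD, the aspartic protease cathepsin D, 41.7% of whose exon bases also belong to a second gene annotated on the same strand. TFEB, MCOLN1 (a lysosomal calcium channel) and ATG7 (the enzyme that activates ATG8 and ATG12 for coupling) were the 3 lowest in each group.

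Changes are differences of log2(FPKM + 1), tested by limma with Benjamini-Hochberg adjustment over all genes averaging 1 FPKM or more across the 6 libraries of a table, and a gene was called at an adjusted p under 0.05. In OE against Vector cells, 12 of the 40 genes were called, 9 higher and 3 lower. That was 30% of them, while 22.4% of all 12208 genes tested were called, 12.2% higher and 10.3% lower. The 40 genes had a median change of 0.03, against 0.02 for all genes. The genes called higher were receptors (SQSTM1, NBR1, TAX1BP1, CALCOCO2), ATG8 proteins (MAP1LC3B, GABARAPL1), a phosphoinositide-binding autophagy protein (WIPI1) and 2 lysosomal membrane proteins (LAMP1, NPC1). Those called lower were 2 hydrolases (CTSZ, GAA) and a pump subunit (ATP6V0D1). The split depended on scaling: it was 14 higher and 2 lower with library totals set equal, and 7 higher and 5 lower with either median-of-ratios scaling or quantile normalization. The split over all genes moved likewise. Of all calls, 54.2% were higher with the deposited values, 71.4% with equal totals, 46.1% with median-of-ratios scaling and 49.6% with quantile normalization. Without Vector replicate 1, Vector replicate 2 or OE replicate 2 the count of called genes among the 40 was 7, 6 and 6. Over all genes it fell too, to 1679, 1550 and 1749, against 2740 with all libraries. The 6 genes SQSTM1, NBR1, TAX1BP1, MAP1LC3B, CTSZ and GAA were called under each of the 15 alternatives. The call of CALCOCO2 was lost under 4 of them, that of LAMP1 under 5, that of NPC1 under 2 and that of GABARAPL1 under 7, in each case also without Vector replicate 2 or OE replicate 2.

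**Figure D1:**
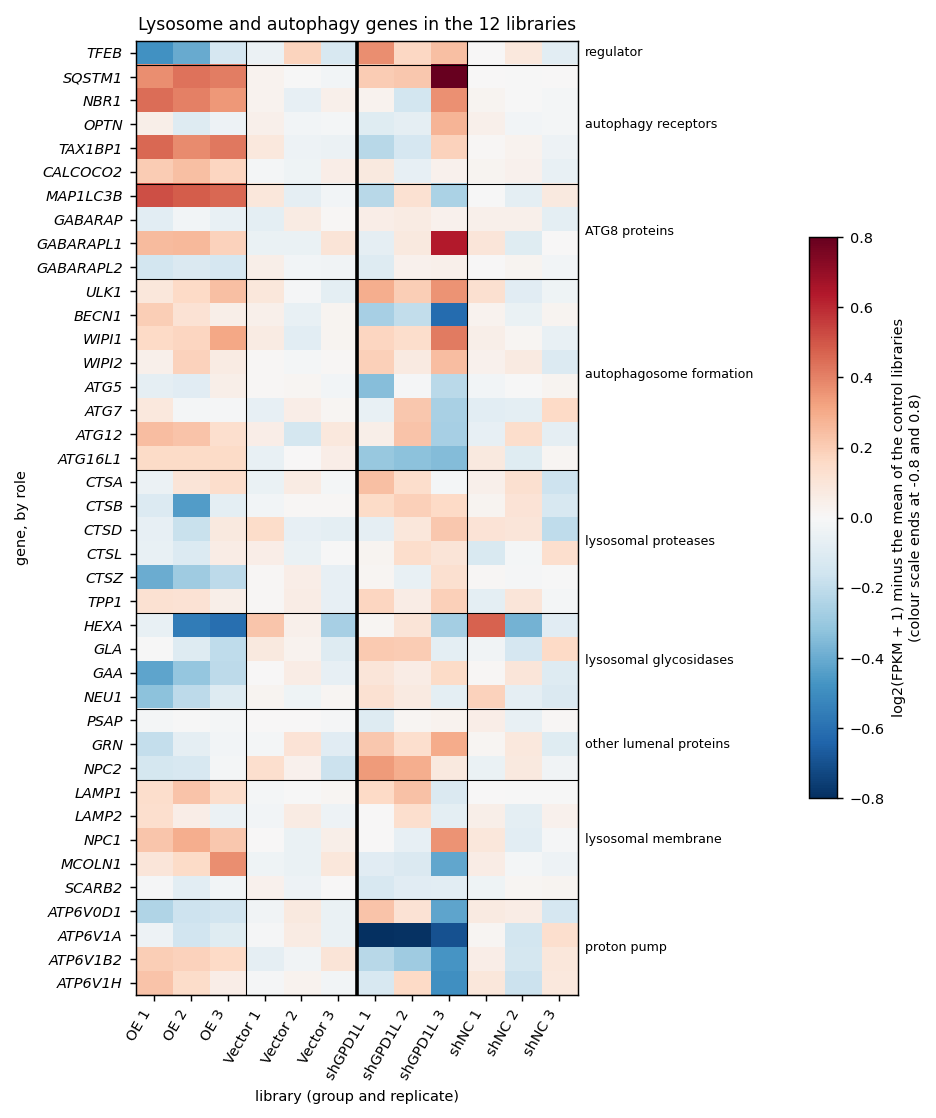
Heat map of the 40 genes (rows, by role) in the 12 libraries (columns); colour gives log2(FPKM + 1) minus the mean of the control libraries of the same table, from blue (lower) to red (higher), with the scale ended at −0.8 and 0.8. SQSTM1, NBR1, TAX1BP1 and MAP1LC3B are red in all 3 OE libraries, and ATP6V1A is the darkest blue row in shGPD1L libraries.

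The receptors were the group with the most calls in OE cells, 4 of 5, all higher (80%, against 12.2% of all genes). SQSTM1 (chr5:179806398-179838078, plus strand, GRCh38) was at 480.5, 502 and 493 FPKM in OE libraries, against 378, 369.8 and 365 FPKM in Vector libraries. The groups did not overlap, their means were 492 ± 10.9 and 371 ± 6.23 FPKM (SD, n = 3 each), and the change of 0.41 had an SE of 0.0366 and an adjusted p of 0.000468 by limma. The opposite strand gene MRNIP overlaps 20.7% of the SQSTM1 exon bases and strandedness is not stated. MRNIP averaged 18.4 FPKM in OE and 16.4 FPKM in Vector cells, and its part in the SQSTM1 values was not tested. NBR1, a receptor that binds ubiquitin and ATG8 proteins much as SQSTM1 does, was at 48.3, 46.8 and 45.0 FPKM in OE libraries, against 35.9, 33.6 and 36.3 FPKM in Vector libraries. TAX1BP1, another ubiquitin-binding receptor, was at 88.1, 83.2 and 85.9 FPKM in OE libraries, against 68.0, 62.2 and 61.8 FPKM in Vector libraries. Both had all OE libraries above all Vector libraries, with changes of 0.40 (adjusted p 0.00183) and 0.42 (adjusted p 0.00148). CALCOCO2 (NDP52), which recognises invading bacteria and damaged mitochondria, was at 38.8, 39.9 and 37.9 FPKM in OE libraries, against 33.2, 32.7 and 34.8 FPKM in Vector libraries, a smaller change of 0.20 (adjusted p 0.0176). The fifth receptor, OPTN (optineurin), overlapped between the groups, with a change of −0.03 and an adjusted p of 0.671.

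The ATG8 family moved unevenly. MAP1LC3B (chr16:87383995-87404779, plus strand), the LC3 protein commonly used to mark autophagosomes, was at 59.6, 58.3 and 57.3 FPKM in OE libraries, against 44.3, 39.4 and 40.8 FPKM in Vector libraries. Its change of 0.48 was the largest rise among the 40 genes (SE 0.0523, adjusted p 0.00101). A near-identical retrocopy, MAP1LC3B2, may share reads with it; that gene was at 2.78, 4.72 and 4.31 FPKM in OE libraries, against 3.45, 2.75 and 2.23 FPKM in Vector libraries, and was not called (adjusted p 0.157). GABARAPL1 was called higher by 0.23 (adjusted p 0.0311), with 15.5, 15.5 and 14.7 FPKM in OE libraries, against 12.3, 12.3 and 13.8 FPKM in Vector libraries. GABARAP and GABARAPL2, the other two of the GABARAP branch measured, had changes of −0.05 and −0.13 and were not called (adjusted p 0.455 and 0.0581). With median-of-ratios scaling or quantile normalization GABARAPL2 was called lower and GABARAPL1 was no longer called. The order of the family differed between groups: MAP1LC3B stood above GABARAPL2 in all OE libraries (57.3 to 59.6 against 48.6 to 49.6 FPKM) and below it in all Vector libraries (39.4 to 44.3 against 52.7 to 55.7 FPKM). GABARAP was the highest of the family in all 4 groups, though 30.5% of its exon bases also belong to a gene annotated on the same strand and 25.2% to one on the opposite strand.

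TFEB (chr6:41683978-41736259, minus strand) was at 2.69, 2.91 and 3.71 FPKM in OE libraries, against 3.99, 4.83 and 3.72 FPKM in Vector libraries. The groups did not overlap, but the highest OE library and the lowest Vector library were nearly equal, and the change of −0.34 (SE 0.117) did not pass (adjusted p 0.0697). Of the 8 genes of autophagosome formation, only WIPI1 was called in OE cells (12.5%, against 12.2% of all genes called higher). It was at 14.6, 14.8 and 16.3 FPKM in OE libraries, against 13.6, 12.2 and 13.2 FPKM in Vector libraries, a change of 0.21 with an adjusted p of 0.0498, and it was not called under 11 of the 15 alternatives. ARSG overlaps 24.3% of the WIPI1 exon bases. The kinase ULK1, the PI3-kinase subunit BECN1, WIPI2, and the coupling proteins ATG5, ATG7, ATG12 and ATG16L1 had changes between −0.04 and 0.20 with no call; the closest were ATG16L1 (0.15, adjusted p 0.0601) and ATG12 (0.20, adjusted p 0.072).

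Of the 5 lysosomal membrane proteins among the 40 genes 2 were called higher in OE cells (40%, against 12.2% of all genes). Of the 6 proteases 1 was called lower (16.7%) and of the 4 glycosidases 1 (25%), against 10.3% of all genes. LAMP1, an abundant glycoprotein of the lysosomal membrane, was at 99.9, 106 and 99.7 FPKM in OE libraries, against 89.6, 90.4 and 91.5 FPKM in Vector libraries (change 0.17, adjusted p 0.0232). NPC1, the membrane protein that exports cholesterol, was at 14.8, 15.6 and 14.7 FPKM in OE libraries, against 12.5, 12.1 and 13.0 FPKM in Vector libraries (change 0.24, adjusted p 0.0161). Both groups of libraries were fully separated for these 2 genes, and LAMP2, MCOLN1 and SCARB2 (LIMP-2), another abundant membrane protein of the lysosome, had changes of 0.05, 0.21 and −0.04 with no call. CTSZ, the carboxypeptidase cathepsin Z, was at 51.7, 55.9 and 58.9 FPKM in OE libraries, against 68.8, 70.9 and 65.1 FPKM in Vector libraries (change −0.30, SE 0.0582, adjusted p 0.01). GAA, the acid alpha-glucosidase that degrades lysosomal glycogen, was at 39.0, 42.2 and 45.3 FPKM in OE libraries, against 52.6, 54.7 and 50.2 FPKM in Vector libraries (change −0.31, SE 0.0621, adjusted p 0.0106). The glycosidases GAA, HEXA, NEU1 and GLA all had lower means in OE cells, but only GAA was called. HEXA had the largest decrease of the 40 genes in size, −0.41, yet its libraries overlapped, with 32.7, 22.8 and 22.1 FPKM in OE and 39.98, 35.2 and 28.3 FPKM in Vector (adjusted p 0.0987). NEU1, a sialidase, had a change of −0.21 and an adjusted p of 0.0506. The other proteases, CTSA, CTSB, CTSD, CTSL and TPP1, ranged from −0.21 (CTSB) to 0.09 (TPP1), and the lumenal proteins PSAP, GRN and NPC2 from −0.10 to −0.01, all without a call.

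Pump subunits were mixed. ATP6V0D1, of the part anchored in the membrane, was at 30.3, 31.9 and 32.2 FPKM in OE libraries, against 35.2, 37.98 and 34.7 FPKM in Vector libraries, a change of −0.19 (adjusted p 0.0367) that was not called under 8 of the 15 alternatives. ATP6V1A, ATP6V1B2 and ATP6V1H, of the cytosolic part that splits ATP, had changes of −0.10, 0.18 and 0.14 and were not called.

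**Figure D2:**
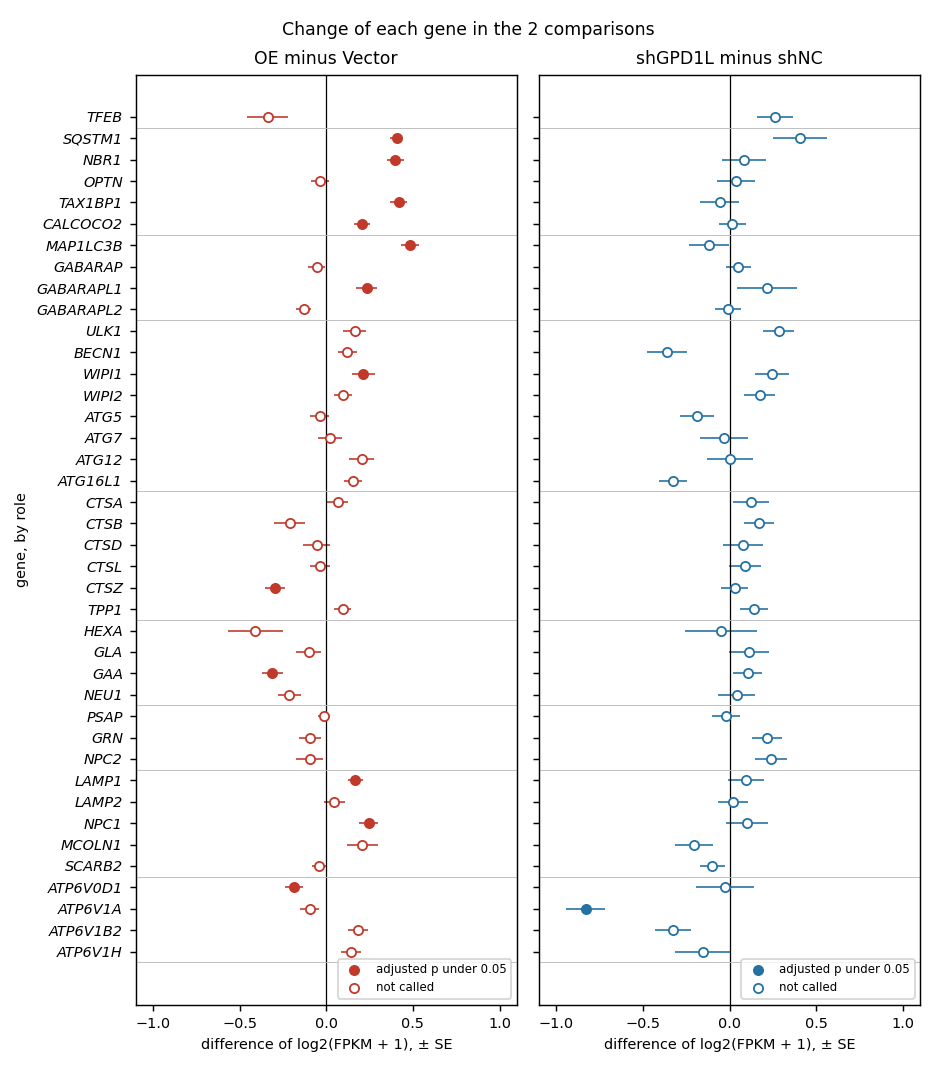
Difference of log2(FPKM + 1) for each of the 40 genes (points) with its SE (bars), OE minus Vector on the left and shGPD1L minus shNC on the right; filled points have an adjusted p under 0.05 by limma. The left panel holds 12 filled points, 9 right of 0, and the right panel 1, ATP6V1A at −0.83.

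Promoters are shown for GAA and LAMP1 because both were called in OE cells, in opposite directions, and both hold the core of the CLEAR element close to the gene start. ATP6V0D1, called lower, also holds the core, 61 bases before the start. Its promoter is not shown because 80 of the 250 bases are annotated as exon of the gene. The core searched was GTCACGTG, which reads CACGTGAC on the other strand, and the E-box CACGTG lies within it, so each match of the core is also one of the E-box. The sequences are the 250 bases before the RefSeq gene start (GRCh38.p14), GAA at chr17:80101331-80101580 and LAMP1 at chr13:113296989-113297238, both on the plus strand and 5′ to 3′, with matches of the core in capitals.
GAA: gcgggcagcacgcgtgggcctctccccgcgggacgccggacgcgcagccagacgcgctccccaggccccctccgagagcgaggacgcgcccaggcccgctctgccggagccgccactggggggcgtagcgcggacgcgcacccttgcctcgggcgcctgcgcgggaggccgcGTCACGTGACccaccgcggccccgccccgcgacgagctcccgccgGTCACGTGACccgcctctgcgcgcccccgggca
LAMP1: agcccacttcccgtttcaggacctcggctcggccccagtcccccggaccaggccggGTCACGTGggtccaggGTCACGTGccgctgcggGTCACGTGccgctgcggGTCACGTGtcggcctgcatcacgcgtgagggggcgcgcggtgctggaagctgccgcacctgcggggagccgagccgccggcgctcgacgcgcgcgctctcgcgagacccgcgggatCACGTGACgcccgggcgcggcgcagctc
In the GAA promoter the capitals form 2 runs, each a pair of overlapping matches on the 2 strands, whose first matches begin 78 and 33 bases before the start. In the LAMP1 promoter 5 separate matches begin 194, 178, 161, 144 and 28 bases before the start, and a sixth begins 1 base before it, so that the end of the printed stretch divides it and it is left in lower case. Of the 33 genes with a promoter in the RefSeq table, 6 held the core within 250 bases before to 50 after the start (18.2%), against 690 of all 27305 promoters (2.53%) and 439 of the 9902 promoters of genes listed in the tables (4.43%). The E-box alone was in 7 of the 33 (21.2%), against 7.44% of all promoters and 10.3% of those of listed genes. The 6 genes were LAMP1, called higher in OE cells, GAA and ATP6V0D1, called lower, and CTSA, CTSD and MCOLN1, not called; none of the 6 was called in shGPD1L cells. A match describes the letters only and is not evidence of binding.

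In shGPD1L against shNC cells, 1 of the 40 genes was called, ATP6V1A, lower. That was 2.5% of the 40, while 0.592% of all 12156 genes tested were called, 0.115% higher and 0.477% lower. At an unadjusted p under 0.05 there were 10 of the 40, against 16.3% of all genes, and without replicate 3 of shGPD1L there were 11, against 23.9%. ATP6V1A (chr3:113747019-113812056, plus strand), the catalytic subunit of the pump, was at 9.52, 11.3 and 12.1 FPKM in shGPD1L libraries, against 20.4, 18.1 and 22.2 FPKM in shNC libraries. The groups were far apart, with means of 11.0 ± 1.30 and 20.2 ± 2.06 FPKM (SD, n = 3 each), a ratio of 0.541, and the change of −0.83 (SE 0.113) had an adjusted p of 0.0337 by limma. Its adjusted p lay between 0.00962 and 0.203 over 15 alternatives, and the call was lost under quantile normalization, with a replicate block, and without each of shNC replicates 1, 2 and 3 and shGPD1L replicates 1 and 2, while the change stayed between −0.91 and −0.74. Few genes of any kind were called under these 7 alternatives. In the order named, they called 25, 3, 1, 0, 0, 8 and 7 of all 12156 genes, against 72 in the fit above. Another subunit of the ATP-splitting part, ATP6V1B2, was lower in every shGPD1L library (19.7, 18.8 and 16.4 FPKM, against 24.01, 20.9 and 24.7 FPKM in shNC libraries) but not called (−0.33, adjusted p 0.189; −0.25 and 0.131 without replicate 3 of shGPD1L).

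Leaving out the shGPD1L library that stood apart, 2 of the 40 genes were called, while 5.01% of all genes were, 1.8% higher and 3.21% lower. They were ATP6V1A at −0.90 (adjusted p 0.00962) and NPC2, the lumenal carrier that hands cholesterol to NPC1, at 0.31 (adjusted p 0.0406). NPC2 was at 63.2, 61.2 and 52.7 FPKM in shGPD1L libraries, against 48.0, 52.7 and 48.9 FPKM in shNC libraries, and with all libraries its change of 0.24 was not called (adjusted p 0.269).

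SQSTM1 shows how far that library stood from the others. It was at 281, 283 and 425 FPKM in shGPD1L libraries, against 244, 243 and 244 FPKM in shNC libraries. All 3 were above all shNC libraries, but the spread left the change of 0.41 uncalled (SE 0.156, adjusted p 0.265), and without replicate 3 it was 0.21 (adjusted p 0.0828). SQSTM1 is a known target of the oxidative-stress factor NRF2; the median of 8 other NRF2 targets, relative to shNC, was 0.03, 0.14 and 0.72 in shGPD1L replicates 1, 2 and 3, and relative to Vector it was 0.35, 0.24 and 0.32 in the OE libraries. The 8 targets were divided: 4, 6 and 8 of them lay above the shNC mean in shGPD1L replicates 1, 2 and 3. In each OE library 5 lay above the Vector mean, and in OE cells 5 were called higher and 1 lower. The part of these targets in the SQSTM1 values was not tested. GABARAPL1 likewise stood at 16.0 FPKM in shGPD1L replicate 3 and at 9.39 and 10.6 FPKM in the other two, against 10.7, 9.22 and 9.93 FPKM in shNC libraries.

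No other gene of the 40 was called in shGPD1L cells. TFEB was at 4.37, 3.65 and 3.89 FPKM in shGPD1L libraries, against 3.15, 3.38 and 2.91 FPKM in shNC libraries; the groups did not overlap and the change of 0.26 was not called (adjusted p 0.268; 0.27 and 0.184 without replicate 3). MAP1LC3B was at 24.3, 31.1 and 23.7 FPKM in shGPD1L libraries, against 28.4, 26.9 and 30.1 FPKM in shNC libraries, with overlapping groups. In 7 of the 40 genes (17.5%) every shGPD1L library lay above every shNC library, against 9.54% of all genes tested, and in 6 (15%) every one lay below, against 15.1%. In OE cells the same counts were 16 above (40%, against 24.2% of all genes) and 7 below (17.5%, against 17.6%).

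**Figure D3:**
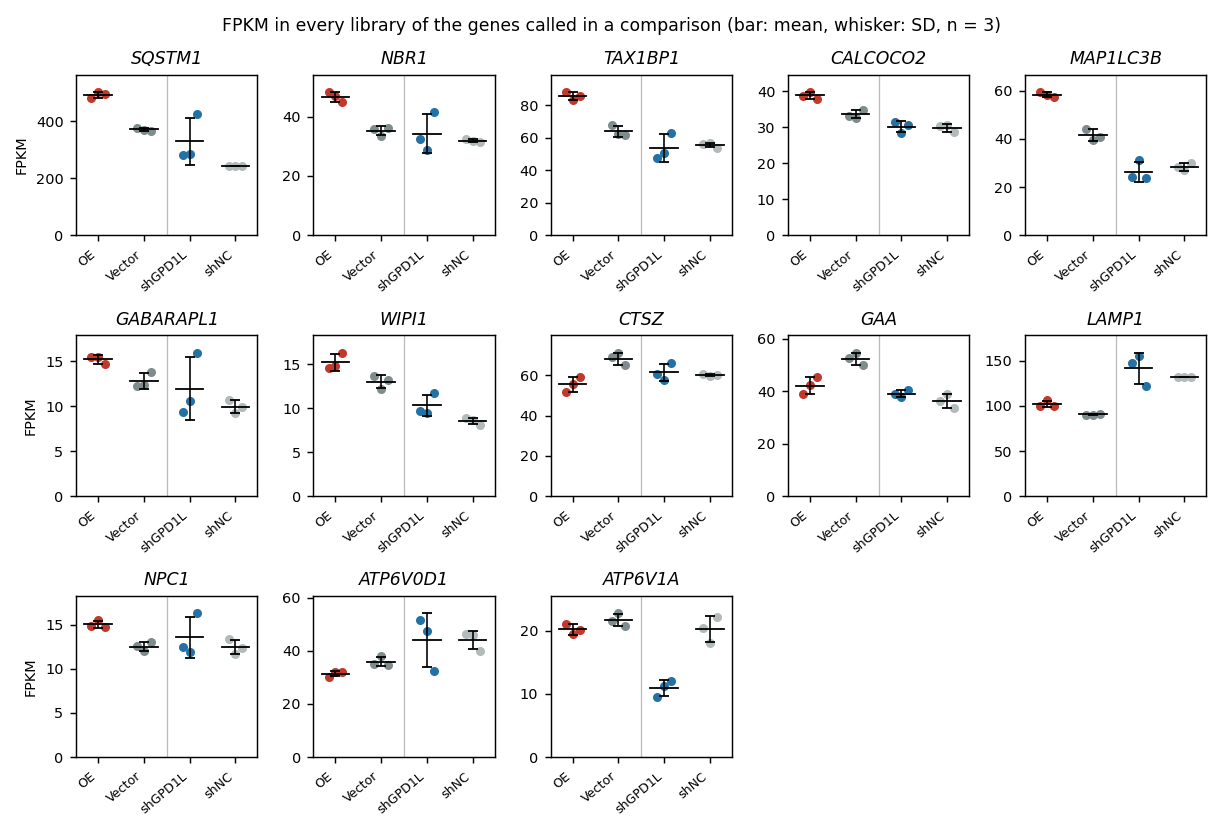
FPKM in every library (points) of the 13 genes called in either comparison, with group means (bars) and SDs (whiskers, n = 3); each vertical axis starts at 0. The OE points lie apart from the Vector points in 12 panels, and in the ATP6V1A panel the shGPD1L points, 9.52 to 12.1 FPKM, lie below all others.

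Whether raising and lowering GPD1L gave different changes was tested gene by gene over all 12 libraries, as OE minus Vector less shGPD1L minus shNC, in one limma model. The 2 comparisons share no control libraries. The difference was called for 9 of the 40 genes (22.5%), 6 positive and 3 negative, against 14.1% of all 11208 genes tested, 9.14% positive and 5.00% negative. The median difference was −0.01 for the 40 genes, against 0.06 for all genes. Positive differences were found for MAP1LC3B (0.60, adjusted p 0.0122), TAX1BP1 (0.47, adjusted p 0.0293), ATP6V1A (0.74, adjusted p 0.00494), ATP6V1B2 (0.51, adjusted p 0.0164), BECN1 (0.48, adjusted p 0.0338) and ATG16L1 (0.48, adjusted p 0.00561). ATP6V1A had lower means than the controls in both comparisons, with ratios of 0.933 in OE and 0.541 in shGPD1L cells. Its positive difference is therefore not a rise in OE cells. Negative differences were found for TFEB (−0.60, adjusted p 0.0268), GAA (−0.41, adjusted p 0.021) and CTSZ (−0.32, adjusted p 0.0401). TFEB, BECN1, ATG16L1 and ATP6V1B2 were called here although neither comparison alone called them. The model takes a common spread per gene over all groups. The median SD of the genes tested was 0.151 in shGPD1L, 0.0894 in shNC, 0.0803 in OE and 0.0761 in Vector cells. The spread of the shGPD1L libraries may therefore be understated in these calls. The call of the difference was lost under 11 of 21 alternatives for TAX1BP1 and for CTSZ, 9 of 21 for BECN1, 7 of 20 for TFEB, 4 of 21 for GAA, and with the replicate block alone for MAP1LC3B and ATP6V1B2. With median-of-ratios scaling the difference was called for 11 of the 40 genes, 5 positive and 6 negative. Of the calls over all genes 44% were then positive, against 64.6% with the deposited values. Quantile normalization gave 6 positive and 3 negative and equal library totals 6 and 2, with 49.9% and 71.2% of all calls positive. ATG16L1, which directs the coupling of ATG8 proteins to membranes, was at 19.6, 19.7 and 19.7 FPKM in OE libraries, against 16.8, 17.6 and 18.3 FPKM in Vector libraries, and at 15.9, 15.6 and 15.4 FPKM in shGPD1L libraries, against 21.0, 18.6 and 20.2 FPKM in shNC libraries. It was higher in every OE library and lower in every shGPD1L library than in the matching controls. BECN1 did so too, at 36.4, 34.3 and 32.8 FPKM in OE libraries, against 32.5, 30.3 and 32.1 FPKM in Vector libraries, and at 30.4, 31.98 and 23.7 FPKM in shGPD1L libraries, against 37.6, 35.5 and 37.4 FPKM in shNC libraries. PSME3, on the opposite strand, shares 4.68% of the BECN1 exon bases and averaged 71.0 FPKM in OE and 56.2 FPKM in Vector, and 70.4 FPKM in shGPD1L and 86.6 FPKM in shNC cells; its part in the BECN1 values was not tested.

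SQSTM1 had a change of 0.41 in each comparison, and the difference of 0.00 was not called (SE 0.173, adjusted p 0.997). Of the 40 genes, 20 had changes of opposite sign in the 2 comparisons (8 higher in OE and lower in shGPD1L cells, 12 lower in OE and higher in shGPD1L cells), 13 were higher in both and 7 lower in both, and no gene was called in both. The count of called differences was 14 without shGPD1L replicate 3 (9 positive and 5 negative), where 22.9% of all genes were called, 13.8% positive and 9.15% negative, the additional genes being SQSTM1, NBR1, NPC1, NPC2 and ATP6V0D1. It was 5 without shNC replicate 1, 4 without shNC replicate 3, Vector replicate 2 or OE replicate 1, and 5 without OE replicate 2, and ATP6V1A and ATG16L1 were called under each of the 21 alternatives. Over all genes 1074, 898, 844, 790 and 940 differences were called without these libraries in turn, against 1584 with all 12.

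**Figure D4:**
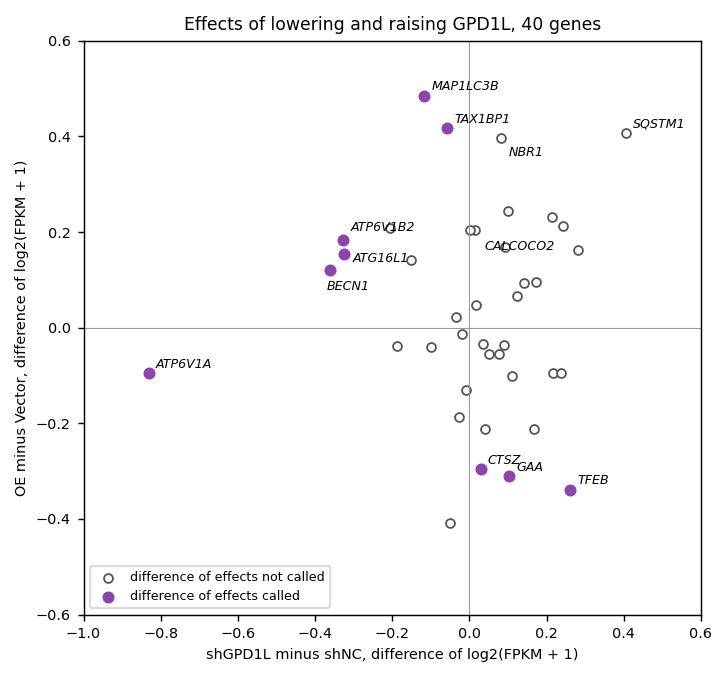
Change in shGPD1L minus shNC (horizontal) and in OE minus Vector (vertical) of log2(FPKM + 1) for the 40 genes; filled points have a called difference between the 2 changes. Most filled points lie in the upper left (MAP1LC3B, TAX1BP1, ATP6V1B2, ATG16L1, BECN1) or lower right (TFEB, GAA, CTSZ), ATP6V1A lies far left, and SQSTM1 lies near 0.41 on both axes.

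Other genes of the lysosome and of autophagy, 157 in 7 lists by role, were looked at in the same fits; 154 were listed in both tables. In OE cells 32 of the 152 tested were called (21.1%), 14 higher (9.21%) and 18 lower (11.8%), near the 22.4%, 12.2% and 10.3% of all genes. Among 38 other hydrolases and their cofactors tested, 14 were lower (36.8%, against 10.3% of all genes) and 1 higher, with a median change of −0.12. CTSF (cathepsin F) was at 14.2, 15.5 and 16.4 FPKM in OE libraries, against 24.2, 23.03 and 21.99 FPKM in Vector libraries, a change of −0.56 (adjusted p 0.00131). CTSH (cathepsin H) changed by −0.43 (adjusted p 0.00161), so that these 2 cysteine proteases fell more than any hydrolase of the 40 that was called. The count of lower hydrolases was 9, beside 3 higher, with library totals set equal, and 16 beside 1 with median-of-ratios scaling or quantile normalization; it was 7 without Vector replicate 1, 8 without Vector replicate 2, and 9 without OE replicate 2 or 3. Of all calls 71.4% were higher with equal totals, 46.1% with median-of-ratios scaling and 49.6% with quantile normalization, against 54.2% with the deposited values. Without those libraries in turn 1679, 1550, 1749 and 1980 of all genes were called, against 2740 with all libraries.

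The calls among other early autophagy genes and receptors in OE cells were all higher. Among 26 other genes of autophagosome formation, 5 were higher (19.2%, against 12.2% of all genes) and none lower, led by RB1CC1 (FIP200, the scaffold of the ULK1 complex; 0.48, adjusted p 0.00422) and ATG14, a subunit of the BECN1 complex (0.30, adjusted p 0.0228). That count was 2 without Vector replicate 1 or 2 or OE replicate 1 or 3, and 3 without Vector replicate 3 or OE replicate 2. Calls over all genes fell as well when any 1 library was left out, to between 1550 and 1980, against 2740 with all libraries. Of 12 other receptors, 3 were higher (25%, against 12.2% of all genes), among them BNIP3L, a receptor for mitochondria (0.27, adjusted p 0.0366), and NCOA4, which delivers ferritin to autophagosomes (0.23, adjusted p 0.00936). Between 1 and 2 of these receptors were called when any 1 library was left out. The changes of the 12 were divided, 6 positive and 6 negative, with a median of 0.01, against 0.02 for all genes. The remaining lists had shares of calls below the 22.4% of all genes. Of 15 fusion genes (6.67% called) STX17, the SNARE of the autophagosome, was higher (0.29, adjusted p 0.0154). Of 22 genes of nutrient sensing at the lysosome (13.6% called), FNIP1 (0.32) and RRAGC (0.27) were higher and LAMTOR4 (−0.29) lower. Of 25 membrane and sorting genes (16% called), AP3B1 (0.26) was higher, and GNPTG (−0.23), LAPTM4A (−0.21) and 1 more were lower. Of 14 other pump subunits (7.14% called), ATP6V1E1 was higher (0.23). In shGPD1L cells none of the 149 tested was called by limma, against 0.592% of all genes. At an unadjusted p under 0.05 there were 27 of the 149, against 16.3% of all genes. Without shGPD1L replicate 3 the pump subunit TCIRG1 was the 1 gene called (−0.32), 0.671% of those tested, against 5.01% of all genes.

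**Figure D5:**
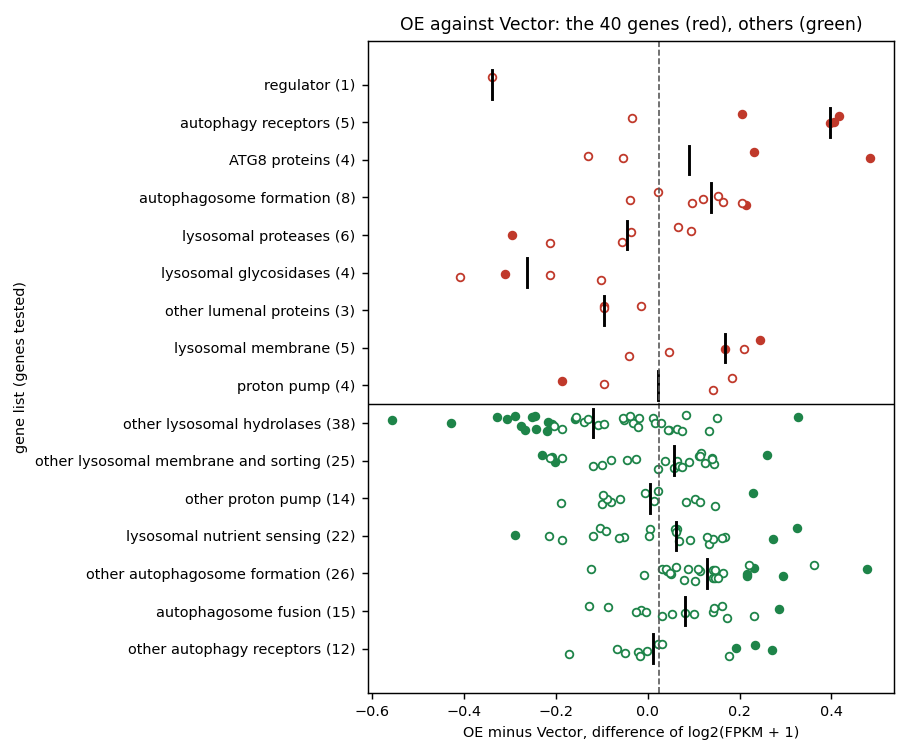
OE minus Vector difference of log2(FPKM + 1) of each gene tested (points, filled where the adjusted p is under 0.05), by list, with the 40 genes above the line and the other genes below it; thick bars are list medians and the dashed line is the median of all genes, 0.02. The other hydrolases have 14 filled points left of 0 and the other autophagosome genes 5 right of 0.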

How the data were processed

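Poly(A) RNA of 12 SW480 libraries was sequenced. The authors deposited FPKM values in 2 tables, 1 for each comparison, which may have been normalized separately, so each comparison was tested within its table. Per the submitters' processing notes, HISAT2, StringTie and DESeq2 were used with GRCh38; the sources used here give neither their roles nor any filter. The tables hold no counts, so the depth is unknown, DESeq2 was not run, and errors are between libraries. Libraries were grouped by title; their genotype labels carry a running number inside the gene name, taken for a slip.

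Genes averaging 1 FPKM or more in a table were tested on log2(FPKM + 1), which understates changes of low genes, by limma 3.58.1 (trended eBayes) in R 4.3.3, first tested on simulated data. The 40 genes and the lists were chosen with earlier results of these data known. Values per library are given for TFEB, SQSTM1, MAP1LC3B, GPD1L and up to 12 called genes a comparison, and for others chosen after their values were seen (HEXA, MAP1LC3B2, GABARAPL1, NPC2, ATP6V1B2, ATG16L1, BECN1 and CTSF). From each other list, the called genes with the largest changes are named, at most 2 in each direction; 1 gene that this rule picks is not reported here. An exact permutation test of 3 against 3 cannot go below p = 0.1 and was not used. Coordinates and overlaps are from GENCODE release 29. Strandedness is not stated. Figures were drawn with matplotlib 3.10.9. Alternatives covered pseudocounts of 0.1 and 0.5, filters, scaling, the trend, a replicate block and leaving out each library.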

Additional observations from a re-analysis of the deposited data

How the results depend on the processing

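Of the 40 genes, 12 were called in OE cells, 1 in shGPD1L cells and 9 for the difference of effects; no called change reversed its sign under any alternative run. Leaving out 1 library at a time gave between 6 and 12, between 0 and 2 and between 4 and 14 called genes for these 3 results. Calls over all genes varied as well, between 1550 and 1980, between 0 and 609 and between 790 and 2572. With all libraries they were 2740, 72 and 1584. In shGPD1L cells quantile normalization called 0 of the 40 genes (8 at an unadjusted p under 0.05, limma) and 25 of all genes. The replicate numbers did not pair the libraries: the deviations of same-numbered libraries correlated between −0.0607 and 0.0222 for OE and Vector and between −0.18 and −0.0155 for shGPD1L and shNC, and 2 and 0 of 6 libraries correlated best with their own number. With the replicate block limma called 8 of the 40 genes in OE cells, 0 in shGPD1L cells (6 at an unadjusted p under 0.05) and 2 for the difference. Over all genes it called 2021, 3 and 483. Depth is unknown, so counting error could not be given. No protein sequences were compared.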
